A study of Mus musculus with 10 samples.

Results

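Neutrophil granule genes were measured in RNA of flushed mouse femurs, as 10 genes fixed by name: 4 genes of the primary granule (Elane, Mpo, Prtn3 and Ctsg) and 6 that are switched on later in neutrophil maturation (Ltf, Camp, Ngp, Lcn2, S100a8 and S100a9). All 10 were found by their gene name among the 38962 genes of the deposited count table, and all 10 were among the 22088 genes that passed the filter on low counts and were tested. The bones came from 5 aged C57BL/6J male mice of 22 months and 5 young ones of 2 months, with 1 library per mouse and no treatment or altered allele in either group. The aged mice came from the colony of the National Institute of Aging and were kept in house to their final age, while the young mice were bought from the Jackson Laboratory, so supplier and age cannot be told apart. Libraries held 31788232 to 45075335 counts in aged and 33447009 to 40395050 counts in young mice (two-sided exact permutation test, p = 0.206).

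A neutrophil fills its granules in a fixed order while it matures in the marrow. Promyelocytes, its early dividing precursors, pack primary (azurophil) granules with myeloperoxidase and with serine proteases that digest microbes and matrix. At the next stages these genes are shut off and the cells make the proteins of secondary (specific) granules, which bind iron or kill microbes, and large amounts of calcium-binding S100 proteins, which stay in the cytosol. The mature cell carries the granule proteins but little RNA for most granule genes, whereas S100a8 and S100a9 RNA stays abundant in mature and circulating neutrophils. In bulk RNA, fewer cells of a type and less RNA per cell cannot be told apart.

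RNA of the granule genes was present in every flushed femur. The methods of the study describe the cortex as devoid of marrow elements, yet the 10 genes together took 0.120% to 0.568% of the counts in aged and 0.160% to 0.316% in young libraries. Defining neutrophil markers were also measured in all 10 libraries. Ly6g, a surface antigen of mouse neutrophils, had 8.12 to 20.6 CPM (read counts scaled to the size of each library) in aged and 7.63 to 11.1 CPM in young mice, and Cxcr2, a chemokine receptor of the mature cell, had 20.2 to 45.1 CPM in aged and 16.7 to 33.5 CPM in young mice. Monocytes and their precursors also express Mpo, Elane, S100a8 and S100a9, and Lcn2 is made by other tissues, so the genes are not exclusive to neutrophils.

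No granule gene differed between aged and young bone beyond the spread between mice. Of the 10 genes, 0 passed edgeR's quasi-likelihood test at an adjusted p of at most 0.05, against 7.29% of all tested genes (3.68% higher and 3.61% lower in aged bone), and 0 had an unadjusted p under 0.05, against 25.7% of all tested genes. DESeq2 and limma-voom also called 0 of the 10, against 11% and 6.9% of the genes they adjusted for. The log2 fold changes, aged over young, lay between 0.18 and 0.39, with standard errors of 0.22 to 0.39 and edgeR adjusted p-values of 0.288 to 0.718. All 10 estimates were above 0, but the genes share libraries and are not independent measurements. Their median was 0.23 over the 4 primary and 0.33 over the 6 later genes, beside 0.01 over all tested genes. The aged and young mice overlapped in all 10 genes, whereas they did not overlap in 7.8% of the tested genes.

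The 4 primary granule genes showed 1 common pattern, in which aged mouse 2 was highest, aged mouse 3 was lowest and the young mice lay between them. Mpo, which encodes myeloperoxidase, the enzyme that makes hypochlorous acid, lies on GRCm38 at chr11:87793581-87804413. It had 127, 298.5, 92.7, 203 and 172 CPM in aged mice 1 to 5, against 193, 142, 141, 170.2 and 116 CPM in young mice 1 to 5. Its mean was 179 ± 79.1 CPM in aged and 153 ± 29.7 CPM in young mice (SD, n = 5 each; log2 fold change 0.23 ± 0.27 SE, edgeR adjusted p = 0.631). Elane, the gene of neutrophil elastase (chr10:79886247-79888215), had 39.8, 109.5, 26.2, 67.3 and 64.1 CPM in aged mice, against 68.5, 45.4, 48.3, 51.8 and 41.2 CPM in young mice. Here 1 aged mouse was above and 2 were below all young mice, and the difference was within the spread between mice (log2 fold change 0.27 ± 0.31 SE, edgeR adjusted p = 0.627).

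Prtn3, which encodes proteinase 3, had 34.8, 89.6, 30.3, 72.7 and 48.8 CPM in aged mice, against 60.4, 43.0, 40.1, 48.3 and 52.5 CPM in young mice. It is the nearest neighbour of Elane among the 10 genes, with 3072 bases between the gene models on chromosome 10, and its log2 fold change was the smallest of them (0.18 ± 0.27 SE, edgeR adjusted p = 0.718). The gene model of Prtn3 (chr10:79874476-79883174) overlaps that of Plppr3 by 159 bases, and reads in that stretch are uncertain because no source used here says whether counting used strand. Ctsg, the gene of cathepsin G (chr14:56099881-56102574), had 21.6, 51.1, 16.5, 34.8 and 23.8 CPM in aged mice, against 31.7, 24.1, 24.9, 26.4 and 19.2 CPM in young mice (log2 fold change 0.23 ± 0.27 SE, edgeR adjusted p = 0.625). For Mpo, Prtn3 and Ctsg, aged mice 2 and 4 were above all young mice.

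In the secondary granule genes aged mouse 2 was again highest and aged mouse 3 lowest of the aged mice, while young mouse 1, highest of the young mice in all 4 primary genes, was highest in none of them. Ltf, which encodes the iron-binding protein lactoferrin (chr9:111019271-111042767), had 525, 1190.4, 491, 868 and 613 CPM in aged mice, against 584, 578, 501, 663 and 498 CPM in young mice. Aged mice 2 and 4 were above and aged mouse 3 was below all young mice. Its mean of 738 ± 293 CPM in aged and 565 ± 68.2 CPM in young mice (SD, n = 5 each) gave the largest log2 fold change of the 10 genes and the smallest p (0.39 ± 0.22 SE, edgeR adjusted p = 0.288). Ngp, the gene of neutrophilic granule protein (chr9:110419747-110423012), had 476, 1311, 347, 775 and 536 CPM in aged mice, against 582, 599, 454, 696 and 488 CPM in young mice (log2 fold change 0.29 ± 0.30 SE, edgeR adjusted p = 0.579). Camp encodes the antimicrobial peptide cathelicidin (chr9:109847379-109849617), and had 148, 339.6, 115, 223 and 173 CPM in aged mice, against 156, 193, 126, 183 and 144 CPM in young mice (log2 fold change 0.32 ± 0.25 SE, edgeR adjusted p = 0.451). Camp, Ngp and Ltf lie in this order on chromosome 9, with 570129 bases between the first pair and 596258 between the second. Lcn2, which encodes lipocalin 2, a protein that captures bacterial iron carriers (chr2:32384633-32388252), had 97.02, 300.4, 69.3, 148 and 118 CPM in aged mice, against 113, 120.3, 88.4, 147 and 105 CPM in young mice (log2 fold change 0.35 ± 0.33 SE, edgeR adjusted p = 0.532).

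S100a8 and S100a9, whose products pair to form calprotectin, varied most among the young mice. They are neighbours on chromosome 3, with 22596 bases between them. S100a8 (chr3:90668978-90670035) had 234.5, 471, 85.4, 187 and 215 CPM in aged mice, against 169.9, 267, 135, 256 and 116 CPM in young mice (log2 fold change 0.34 ± 0.39 SE, edgeR adjusted p = 0.615). S100a9 (chr3:90692632-90695721) had 361, 789, 178, 376 and 354 CPM in aged mice, against 302, 443, 292, 428 and 221 CPM in young mice (log2 fold change 0.29 ± 0.33 SE, edgeR adjusted p = 0.622). Unlike for Mpo, Prtn3, Ctsg, Ltf, Camp, Ngp and Lcn2, aged mouse 4 lay within the range of the young mice for both. The coefficient of variation among young mice was 36.7% for S100a8 and 28.1% for S100a9, against 12.1% to 20.6% for the other 8 genes.

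**Figure D1:**
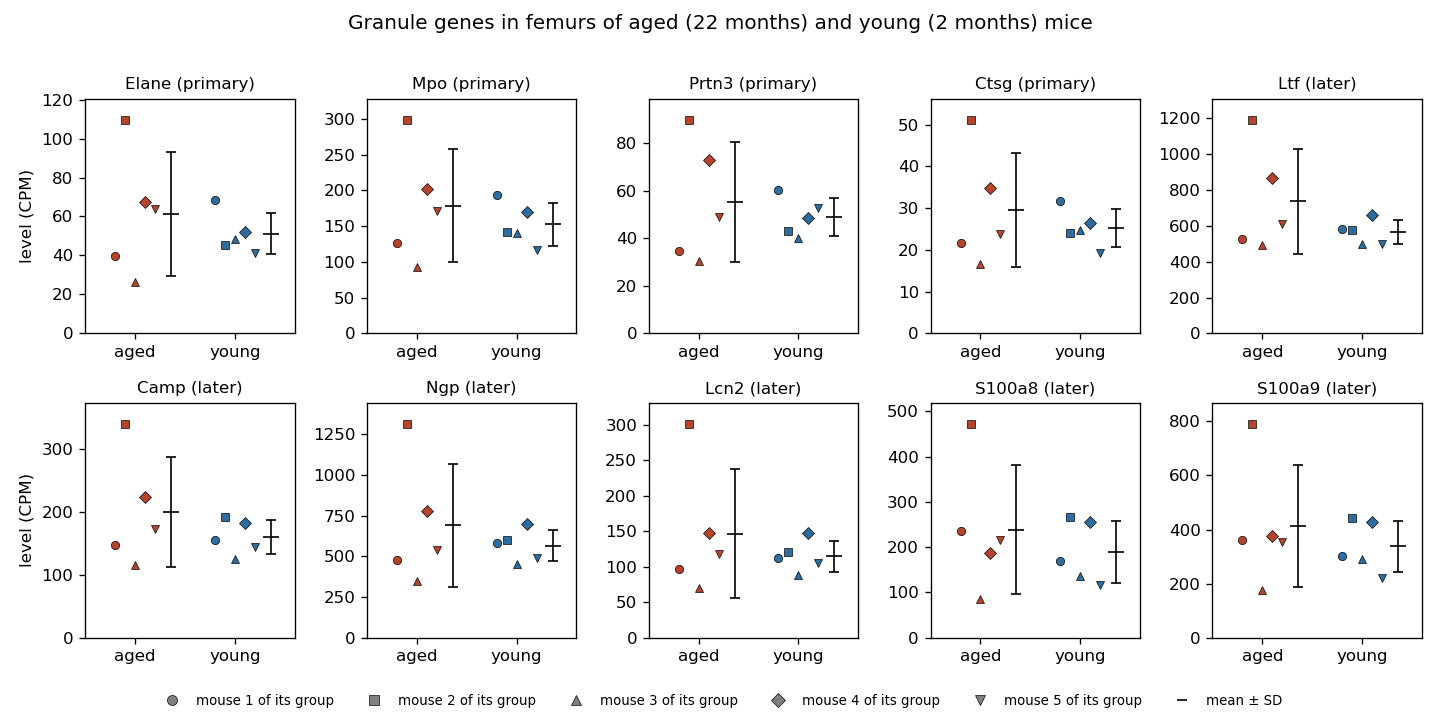
Level of each granule gene (y axis, CPM, 1 panel per gene from 0) in the 5 aged mice (left, red) and the 5 young mice (right, blue), with 1 symbol per mouse number and the mean ± SD as a bar. In all 10 panels aged mouse 2 (square) is highest and aged mouse 3 (triangle) is lowest of the aged mice, and the young mice lie between these extremes.

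The data bound the size of a difference rather than showing that there is none. The 95% intervals of the fold change ran from 0.704 to 2.27 for S100a8, the widest, and from 0.942 to 1.81 for Ltf, the narrowest. For Mpo the interval was 0.777 to 1.76, and for Elane 0.748 to 1.94. The median standard error over the 10 genes was 0.29 on the log2 scale, against 0.18 over all tested genes. The fewest counts of any granule gene in a library were 436, for Ctsg in aged mouse 3.

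**Figure D2:**
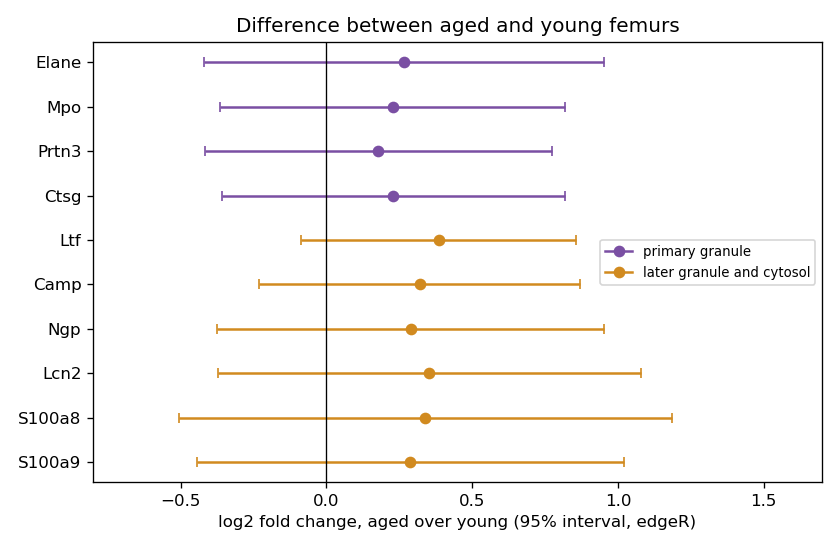
Log2 fold change, aged over young (x axis), of the 4 primary (purple) and the 6 later genes (orange) with 95% intervals from edgeR's quasi-likelihood fit. All 10 intervals include 0, and the points lie between 0.18 and 0.39.

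In the granule genes, aged mice differed from each other more than young mice did. The coefficient of variation was 39.7% to 61.9% (median 49.2%) in aged and 12.1% to 36.7% (median 18.3%) in young mice, and was larger in aged mice for 10 of 10 genes, against 59.6% of all tested genes. These 10 genes share libraries and are not independent measurements, and the difference in spread was not tested. The highest aged mouse exceeded the lowest by 2.42-fold (Ltf) to 5.52-fold (S100a8), against 1.33-fold (Ltf) to 2.31-fold (S100a8) in young mice. Aged mouse 2 was above all young mice in 10 of 10 genes and aged mouse 3 was below all young mice in 10 of 10. Aged mouse 4 was above all young mice in 7 genes, aged mouse 1 was below all of them in 2, and aged mouse 5 lay within their range in all 10. Without aged mouse 2 the log2 fold changes fell to between -0.09 and 0.15, with 8 of the 10 below 0, and the ratio of mean levels, aged over young, was 0.941 to 1.11, against 1.13 to 1.31 with all aged mice. The coefficients of variation of the other 4 aged mice were 27.3% to 41.0% and still above those of the young mice in 10 of 10 genes. With aged mice 2 and 3 both left out, a choice made after the data were seen, they were 3.14% to 36.8% and above those of the young mice in 8 of 10 genes.

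The balance of primary to later granule RNA overlapped between the ages, with a wider range in young mice. Because both sums come from 1 library, their ratio does not depend on how libraries are scaled. For every 100 reads of the 6 later genes there were 12.1, 12.5, 12.9, 14.6 and 15.4 reads of the 4 primary genes in aged mice 1 to 5, against 18.6, 11.6, 15.9, 12.5 and 14.6 in young mice 1 to 5. All 5 aged mice lay within the range of the young mice. On the log2 scale the ratio averaged -2.90 ± 0.15 in aged and -2.79 ± 0.27 in young mice (SD, n = 5 each), a difference of -0.10, which is smaller than either SD. The difference was -0.11 without S100a8 and S100a9 and -0.10 with every gene weighted alike. Aged mouse 2, with the most granule RNA, and aged mouse 3, with the least, differed little in this ratio (12.5 in aged mouse 2 and 12.9 in aged mouse 3). Within the primary set, Mpo took 55.3% ± 1.28 of the reads in aged and 54.8% ± 2.50 in young mice, Elane took 18.4% ± 1.96 in aged and 18.3% ± 0.815 in young mice, Prtn3 17.1% ± 1.63 in aged and 17.8% ± 2.92 in young mice, and Ctsg 9.18% ± 0.876 in aged and 9.10% ± 0.529 in young mice (SD, n = 5 each).

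**Figure D3:**
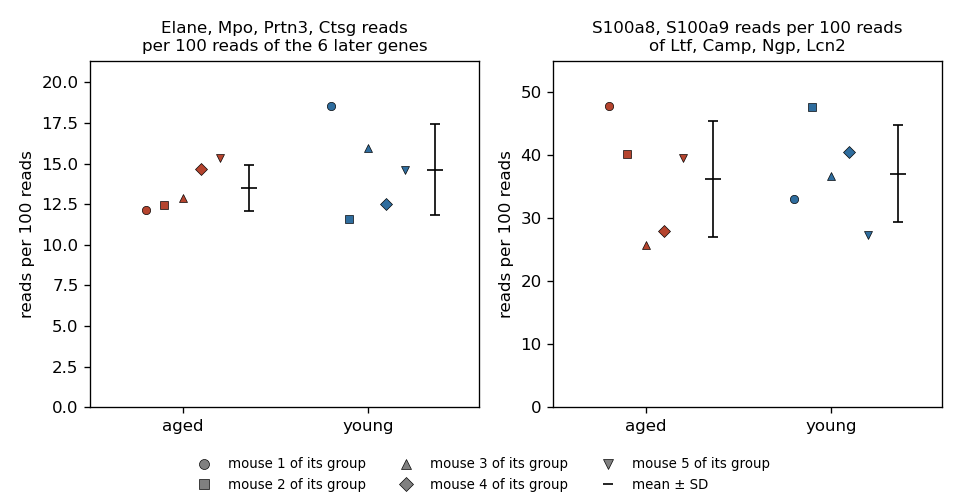
Reads of the 4 primary genes per 100 reads of the 6 later genes (left panel) and of S100a8 and S100a9 per 100 reads of Ltf, Camp, Ngp and Lcn2 (right panel) in aged (red) and young (blue) mice, 1 symbol per mouse number, with mean ± SD. In the left panel the aged mice lie between 12.1 and 15.4 and the young mice between 11.6 and 18.6, and in the right panel the aged mice lie between 25.7 and 47.8 and the young mice between 27.3 and 47.6.

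A second balance, of the S100 genes to the secondary granule genes, differed by less between the groups (-0.75 in the means) than from mouse to mouse (SD 9.19 in aged and 7.69 in young mice). For every 100 reads of Ltf, Camp, Ngp and Lcn2 there were 47.8, 40.1, 25.7, 28.0 and 39.5 reads of S100a8 and S100a9 in aged mice, against 32.9, 47.6, 36.6, 40.5 and 27.3 in young mice. Aged mouse 1 and young mouse 2 were highest, aged mouse 3 was lowest and the groups overlapped. This ratio was chosen after the values were seen and was not tested. Within the later set, Ltf took 31.6% ± 4.46 of the reads in aged and 29.6% ± 2.37 in young mice, and Ngp 27.9% ± 1.91 in aged and 29.3% ± 1.55 in young mice (SD, n = 5 each).

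The genes rose and fell together among mice of the same age. With each group's mean removed from log2 CPM, the Pearson correlation over the 10 libraries was 0.889 to 0.984 for the 6 pairs of primary genes, 0.752 to 0.990 for the 15 pairs of later genes and 0.566 to 0.938 for the 24 pairs across the sets. These are descriptions, since all pairs share the same 10 libraries and their scaling. Much of the likeness rests on aged mice 2 and 3. Over the other 8 libraries, the correlations were 0.691 to 0.944, 0.271 to 0.975 and -0.27 to 0.812 for the same kinds of pair. The lowest pair was Prtn3 with S100a8, at 0.566 over 10 libraries and -0.27 over 8.

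Per length of the gene model, later genes were more abundant than primary ones in every library, with Lcn2 as the exception. The model of Lcn2 counts 2623 bases and begins 513 bases before its RefSeq start. Its place in this order therefore depends on the length used, and no other length was tried. The same holds for Prtn3, whose model counts 1732 bases and begins 5191 bases before its RefSeq start. It also holds for Camp, with a model of 758 bases that begins 161 bases before the RefSeq start. On the scale of CPM per kilobase over all 10 libraries, the order of the levels was S100a9 (717 ± 322), Ngp (513 ± 221), S100a8 (308 ± 157), Camp (237 ± 85.3), Ltf (189 ± 63.8), Elane (57.1 ± 23.4), Lcn2 (49.8 ± 24.5), Mpo (48.4 ± 16.9), Prtn3 (30.1 ± 10.4) and Ctsg (26.5 ± 9.59; SD, n = 10 for each). The 5 later genes other than Lcn2 exceeded all 4 primary genes in 10 of 10 libraries. S100a9 was above Ngp, Ngp above S100a8, Camp above Ltf and Mpo above Prtn3 in 10 of 10 libraries. Neighbours that changed places were S100a8 and Camp, with S100a8 higher in 7 of 10, Elane and Lcn2, with Elane higher in 8, Lcn2 and Mpo, with Lcn2 higher in 4, and Prtn3 and Ctsg, with Prtn3 higher in 8. S100a9 ranked 29th and Ngp 38th of the 22088 tested genes on this scale.

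The promoters of both sets were compared because their genes moved together. C/EBP-epsilon, a transcription factor, is required for secondary granule genes in mice, and PU.1 (Spi1), RUNX1 and MYB act on primary granule genes. This does not restrict C/EBP factors to the later genes or PU.1 to the primary ones. The sequences shown, 5′ to 3′, come from the 250 bases before the RefSeq start site (GRCm38.p6). They are the parts that precede every exon of GENCODE vM21 annotated within those bases on the same strand. They are given for the 4 primary genes and for 3 later genes that show a C/EBP motif. The deposited gene model of Prtn3 begins further upstream, at chr10:79874476, so its stretch lies inside that model. Capitals mark letters of a motif on either strand: GAGGAA for PU.1, TTGCNNAA for C/EBP, TGTGGT for RUNX and CAACTG for MYB.
Elane: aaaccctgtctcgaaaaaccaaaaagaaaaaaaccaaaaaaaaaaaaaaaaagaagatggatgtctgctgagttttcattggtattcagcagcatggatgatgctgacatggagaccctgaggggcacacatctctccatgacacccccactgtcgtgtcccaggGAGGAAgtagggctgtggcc
Mpo: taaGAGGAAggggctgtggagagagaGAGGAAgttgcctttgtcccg
Prtn3: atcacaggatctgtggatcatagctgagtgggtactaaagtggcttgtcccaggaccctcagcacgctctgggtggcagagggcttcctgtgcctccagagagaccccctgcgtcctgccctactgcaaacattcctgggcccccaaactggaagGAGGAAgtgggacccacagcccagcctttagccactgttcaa
Ctsg: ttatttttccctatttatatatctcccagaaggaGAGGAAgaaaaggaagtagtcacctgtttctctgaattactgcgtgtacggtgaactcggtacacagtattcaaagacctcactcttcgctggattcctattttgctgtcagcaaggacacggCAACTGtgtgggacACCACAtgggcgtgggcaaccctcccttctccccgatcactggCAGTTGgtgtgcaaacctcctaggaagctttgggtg
Ltf: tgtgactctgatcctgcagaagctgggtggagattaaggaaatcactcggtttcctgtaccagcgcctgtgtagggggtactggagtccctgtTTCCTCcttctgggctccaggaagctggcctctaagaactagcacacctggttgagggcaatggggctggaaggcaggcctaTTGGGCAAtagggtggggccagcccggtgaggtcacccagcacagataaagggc
Ngp: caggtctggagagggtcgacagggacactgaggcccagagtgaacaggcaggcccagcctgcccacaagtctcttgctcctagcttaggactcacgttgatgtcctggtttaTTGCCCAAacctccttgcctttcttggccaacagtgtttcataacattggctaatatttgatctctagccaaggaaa
S100a9: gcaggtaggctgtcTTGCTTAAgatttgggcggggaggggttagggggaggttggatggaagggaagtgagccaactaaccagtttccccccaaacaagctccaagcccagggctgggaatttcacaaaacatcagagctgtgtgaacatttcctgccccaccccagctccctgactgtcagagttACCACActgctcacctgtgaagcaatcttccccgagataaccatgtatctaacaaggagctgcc
These lie at chr10:79886062-79886246 (plus strand), chr11:87793534-87793580 (plus strand), chr10:79879417-79879613 (plus strand), chr14:56102575-56102824 (minus strand), chr9:111019042-111019270 (plus strand), chr9:110419558-110419746 (plus strand) and chr3:90695722-90695971 (minus strand).

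In windows from 250 bases before to 50 after the start site, GAGGAA or its complement was found in 4 of 4 primary promoters and in 3 of 6 later ones (Ltf, Lcn2 and S100a8), against 28.3% of 32851 promoters. TTGCNNAA was found in 0 of 4 primary promoters and in 4 of 6 later ones (Ltf, Ngp, Lcn2 and S100a9), against 10.8% of all promoters. TGTGGT was found in Ctsg, Ltf and S100a9 (16.8% of all promoters) and CAACTG in Ctsg alone, with 2 matches (13.7% of all promoters). Camp held none of the 4 motifs in this window. For Prtn3 the RefSeq start lies 5191 bases inside the deposited gene model, and for Lcn2 513 bases inside it, so other start sites are annotated for both. It also lies inside the model for Mpo (203 bases), Camp (161), S100a8 (93), Elane (65), Ngp (61) and Ltf (21). Only for Ctsg and S100a9 does it fall on the edge of the model (0 bases). The motifs share no letters in these windows. A match is a description of the letters and no site of binding.

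Of 12 genes that govern granulopoiesis, namely transcriptional regulators, the growth factor gene Csf3 and its receptor gene Csf3r, 11 were tested. By edgeR 1 was higher and 1 lower, against 3.68% higher and 3.61% lower of all tested genes, and 9 were not called, with a median log2 fold change of 0.16 beside 0.01 over all tested genes. The higher one was the receptor Csf3r, which is also counted among the mature neutrophil markers, and the lower one was Myb. Cebpe, which encodes C/EBP-epsilon, had 17.1 ± 6.84 CPM in aged and 13.2 ± 2.60 CPM in young mice (SD, n = 5 each; edgeR adjusted p = 0.353). Gfi1, which encodes a repressor needed for neutrophil maturation, had 31.2 ± 6.11 CPM in aged and 23.2 ± 3.10 CPM in young mice (edgeR adjusted p = 0.0793, and 0.0306 without aged 1). Cebpb, which encodes C/EBP-beta, a factor of emergency granulopoiesis, had 38.8 ± 6.16 CPM in aged and 32.6 ± 3.87 CPM in young mice (edgeR adjusted p = 0.218). Myb, a factor of dividing precursors, fell to 74.9 ± 7.66 CPM in aged, against 106.7 ± 19.6 CPM in young mice (log2 fold change -0.51 ± 0.13 SE, edgeR adjusted p = 0.0354). The call of Myb ended without each library in turn except aged 1 and young 5 (edgeR adjusted p = 0.0504 to 0.0948) and with the muscle (0.0605) or red cell markers (0.204) as a covariate, as it did without aged 2 and 3 together (0.137). Csf3, the granulocyte growth factor gene, was too low to be tested.

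Some markers of the mature neutrophil were higher in aged bone, where the granule genes were not called. Among 19 such genes edgeR called 3 higher and 0 lower, against 3.68% higher and 3.61% lower of all tested genes, and 16 were not called. The median log2 fold change of the 19 was 0.27, and 5 had an unadjusted p under 0.05, against 25.7% of all tested genes. Padi4, the enzyme that citrullinates histones in neutrophil extracellular traps, rose to 80.5 ± 12.4 CPM in aged, against 52.3 ± 3.55 CPM in young mice, with all 5 aged above all 5 young mice (log2 fold change 0.62 ± 0.11 SE, edgeR adjusted p = 0.00548). Il1b, the gene of the cytokine interleukin-1 beta, rose to a mean of 11.1 CPM (8.22 to 16.7), against 5.47 CPM (4.09 to 7.82) in young mice (log2 fold change 1.02 ± 0.21 SE, edgeR adjusted p = 0.0132). Csf3r, the receptor for the granulocyte growth factor, rose to 241.5 ± 34.0 CPM, against 165 ± 27.4 CPM in young mice (log2 fold change 0.55 ± 0.13 SE, edgeR adjusted p = 0.0253). Macrophages also express Il1b. Clec4d, a C-type lectin of myeloid cells, had 4.91 to 9.87 CPM in aged and 3.04 to 7.10 CPM in young mice (edgeR adjusted p = 0.181), and passed with the muscle covariate (0.0259) and with the replicate block (0.0276). The call of Csf3r ended without young 2, 3 or 4 (edgeR adjusted p = 0.0746, 0.0579 and 0.0521), without aged 2 and 3 together (0.103), when only total counts scaled the libraries (0.218) and with the red cell covariate (0.103). Scaling by totals also ended the call of Padi4 (0.111), and that of Il1b ended with the red cell covariate (0.143) and without aged 2 and 3 (0.0514). The median log2 fold change of the 19 genes, 0.27, lay between those of the 4 primary (0.23) and the 6 later granule genes (0.33). Whether Padi4 or any other of these markers differed from the granule genes in its change with age was not tested.

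Among 19 other genes of specific and gelatinase granules 2 were higher and 0 lower by edgeR, against 3.68% higher and 3.61% lower of all tested genes, and 17 were not called, with a median log2 fold change of 0.38 (10 had an unadjusted p under 0.05, against 25.7% of all). DESeq2 called 5 higher and 1 lower, against 6.1% higher and 4.93% lower of the 25339 genes it adjusted for. By edgeR the log2 fold change was above 0 for 16 of the 19. It was below 0 for Qsox1 (-0.34, edgeR adjusted p = 0.0622), Chil3 (-0.57, 0.255) and Mmp9 (-0.26, 0.603). Olfm4, whose product olfactomedin 4 marks a subset of neutrophils, rose to 11.3 ± 3.07 CPM in aged, against 4.63 ± 0.825 CPM in young mice (SD, n = 5 each; log2 fold change 1.29 ± 0.19 SE, edgeR adjusted p = 0.00195). It kept its call in all 21 alternative fits, with log2 fold changes of 1.13 to 1.57, and all 5 aged mice were above all 5 young mice. Mmp25, a membrane-bound matrix metalloproteinase, rose to 42.2 ± 7.98 CPM, against 27.9 ± 4.01 CPM in young mice (log2 fold change 0.60 ± 0.14 SE, edgeR adjusted p = 0.0198), and its call ended when young 2 (0.0638) or aged 2 and 3 (0.0568) were left out and when only total counts scaled the libraries (0.201). Adam8, a membrane protease, had 71.0 ± 13.2 CPM in aged and 50.7 ± 7.77 CPM in young mice (edgeR adjusted p = 0.0513), and passed in 6 of 21 alternatives, with an adjusted p of 0.0491 by median-ratio scaling, 0.0312 with no filter, 0.0246 by DESeq2, 0.00936 with the muscle covariate, 0.0290 with the replicate block and 0.0269 without aged 1. Slc11a1, a metal transporter, had 30.0 ± 9.42 CPM in aged and 19.4 ± 2.74 CPM in young mice (edgeR adjusted p = 0.0526), and passed in 3 of 21, by DESeq2 (0.0202), with the muscle covariate (0.00743) and without aged 1 (0.0290). Lyz2, the gene of lysozyme M, had 391 ± 186 CPM in aged and 382 ± 29.9 CPM in young mice (edgeR adjusted p = 0.949).

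Other genes of the primary granule and its assembly were not called. Of 8 such genes 0 passed edgeR's test (7.29% of all tested genes did), 1 had an unadjusted p under 0.05 (25.7% of all did), and 0 passed with DESeq2 or limma-voom. The median log2 fold change was 0.13. The gene with the smallest p, Cd63, a membrane protein of these granules and of lysosomes in many cells, had 77.1 ± 18.4 CPM in aged and 98.4 ± 12.6 CPM in young mice (log2 fold change -0.35 ± 0.15 SE, edgeR adjusted p = 0.162). Prss57, a further serine protease of this granule, had 6.11 ± 2.17 CPM in aged and 5.12 ± 0.738 CPM in young mice (edgeR adjusted p = 0.469). Srgn, the proteoglycan that binds the proteases, had 40.2 ± 10.9 CPM in aged and 31.9 ± 6.81 CPM in young mice (edgeR adjusted p = 0.304). Cst7, an inhibitor of lysosomal proteases, had 3.58 ± 1.51 CPM in aged and 2.92 ± 0.608 CPM in young mice (edgeR adjusted p = 0.494). Of 8 genes that hold neutrophils in the marrow or release them, 5 were tested and 0 passed edgeR's test or limma-voom, against 7.29% of all tested genes by edgeR, and DESeq2 called 0 of the 8. By edgeR 2 had an unadjusted p under 0.05, against 25.7% of all. Itga4, an integrin subunit that binds VCAM1, had 149.9 ± 15.1 CPM in aged and 189 ± 36.8 CPM in young mice (edgeR adjusted p = 0.137). Cxcl12, the chemokine that retains them, had 432 ± 87.0 CPM in aged and 545.5 ± 60.8 CPM in young mice (edgeR adjusted p = 0.161). Its receptor gene Cxcr4 had 54.1 ± 11.1 CPM in aged and 64.3 ± 10.9 CPM in young mice (edgeR adjusted p = 0.319). Cxcr2 had an adjusted p of 0.355, and of 0.0369 with the muscle covariate.

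Markers of other cells did not follow the granule genes in a uniform way. Aged mouse 2, the highest in granule RNA, was also the highest aged mouse in red cell precursor markers, with a summed level of 10049.9 CPM against 3483 to 5405 CPM in the other aged mice, and in eosinophil markers, with 91.3 CPM against 24.1 to 28.0 CPM. Aged mouse 4, the second highest in granule RNA, was the lowest of all 10 in red cell precursor markers (3483 CPM) and the highest in monocyte (403 CPM) and macrophage markers (504 CPM). In monocyte markers aged mouse 2 was close behind (398 CPM), followed by aged mice 5 (282 CPM) and 1 (246 CPM). Apart from the places of aged mice 2 and 4, the monocyte markers thus had the order of the granule RNA among aged mice. Aged mouse 3, the lowest in granule RNA, was the lowest in monocyte (186 CPM) and macrophage markers (145 CPM) and the highest in skeletal muscle markers, with 34866 CPM against 13536 to 26581 CPM in the other aged and 8847 to 27400 CPM in young mice. Over the groups, the 11 red cell precursor markers summed to 3483 to 10049.9 CPM in aged and 4725 to 9892 CPM in young mice, and the 12 muscle markers to 13536 to 34866 CPM in aged and 8847 to 27400 CPM in young mice. No marker of these lists was at 0 in any library. Fits with a covariate gave the granule genes log2 fold changes of 0.33 to 0.58 (muscle markers) and 0.32 to 0.90 (red cell markers), and 0 of 10 passed in either fit (1 and 5 at an unadjusted p under 0.05). Of all 22088 tested genes, 1687 passed with the muscle markers and 367 with the red cell markers. An unadjusted p under 0.05 was reached by 5330 genes with the muscle markers and by 2957 with the red cell markers. B cell markers summed to 242 to 342 CPM in aged and 348 to 492 CPM in young mice, without overlap (two-sided exact permutation test, p = 0.00794, the smallest it allows), which did not pass after adjustment over the 18 lists of cell markers (adjusted p = 0.0952). The part of the monocyte, macrophage and eosinophil markers in the granule results was not tested.

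**Figure D4:**
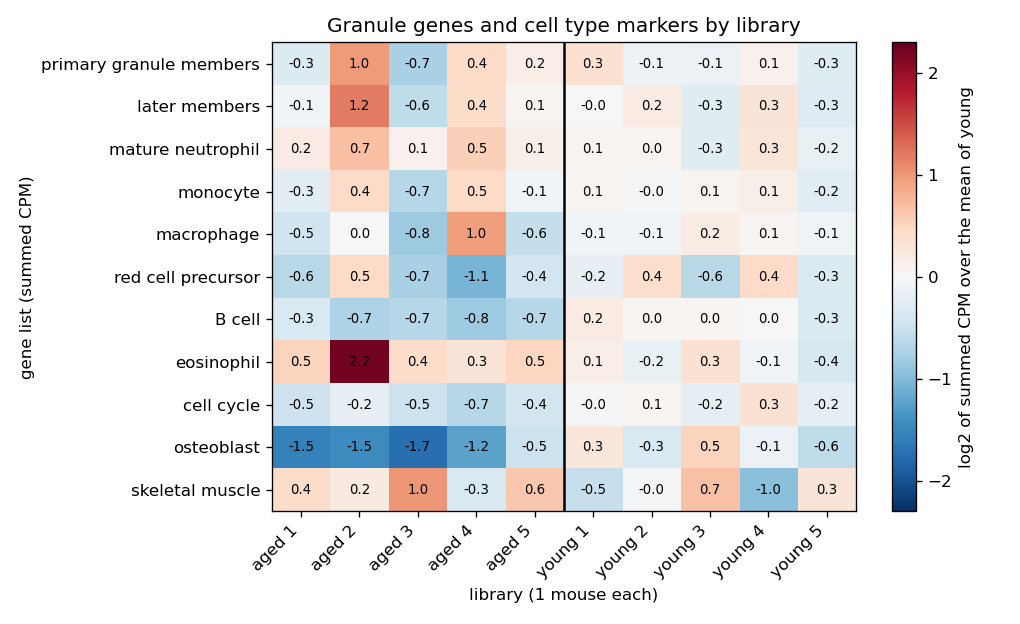
Log2 of the summed CPM of each gene list over the mean of the young mice (colour and printed value), by library (x axis, aged left of the line) and list (y axis). The granule rows are highest in aged 2 (0.98 and 1.19) and lowest in aged 3 (-0.75 and -0.59), while red cell precursor markers are lowest in aged 4 (-1.07).

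Outside the lists, the genes with the most similar pattern across mice of the same age were ranked. Among 16855 candidates with a mean of at least 1 CPM, those closest to the mean of the primary genes included Fam222b, Eno1, Cap1, Rpn2 and Plac8, with residual correlations of 0.956 to 0.979 over 10 libraries (0.873 to 0.928 without aged mice 2 and 3). The closest to the mean of the later genes were Nipsnap3b, Rpl6, Lgals3, Lgals9, Glrx and Cited2, with 0.964 to 0.977 (0.813 to 0.960 without them). Plac8, a protein of myeloid precursors, had 25.0 ± 11.2 CPM in aged and 21.8 ± 3.51 CPM in young mice, and Lgals3, which encodes galectin 3, had 32.5 ± 15.2 CPM in aged and 27.7 ± 3.82 CPM in young mice (SD, n = 5 each; edgeR adjusted p = 0.688 and 0.608). Eno1 and Rpl6 have near-identical copies in the genome, so their counts are uncertain. These genes were picked as the highest of many and their correlations carry no test.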

How the data were processed

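RNA of flushed, pulverized femurs was sequenced as 1 library per mouse. The deposited table holds raw read counts for each gene. According to the methods, the authors trimmed reads with Cutadapt, aligned them with STAR to GRCm38.p6 and counted them with featureCounts. The labels name hg38, but the gene identifiers are mouse ones. No source used here gives the annotation release or the use of strand. All 10 columns were mapped by their labels, and the whole numbers with unequal totals were used as raw counts.

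The test was edgeR 4.0.16 in R 4.3.3 (filter with minimum count 10 and minimum total 15, TMM scaling, robust quasi-likelihood fit and test, Benjamini-Hochberg adjustment over 22088 genes). Calls required an adjusted p no larger than 0.05. Standard errors are the log2 fold change over the root of F. CPM are TMM-scaled, and log2 CPM used a prior count of 2. Alternatives were other scalings and filters, DESeq2 1.42.0, limma-voom (limma 3.58.1), marker covariates, a block on replicate number, and removal of each library in turn. Marker sums and depth were compared by an exact permutation test over 252 assignments. P-values set the difference between the groups against the spread between these mice. The steps were tested on simulated data. Figures were made with Python 3.11.15 and matplotlib 3.10.9.

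The granule genes and lists were chosen with earlier results of these data known. Named are all 10 granule genes, the tested genes with the smallest p in each pathway list (up to 4), and the 6 genes most like each set, of which 1 is not reported here. Cebpe, Lyz2, Ly6g and Cxcr2 were named for their role, and Qsox1, Chil3 and Mmp9 as the members of their list with estimates below 0. Protein sequences were not used here.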

Additional observations from a re-analysis of the deposited data

Results flagged for a closer look

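Over 100 groups of 5 mice, 3 had a mouse set apart by a gap of more than 0.71 of the group's range, where chance flags about 1 in 20. The eosinophil markers of aged mouse 2 summed to 91.3 CPM, against 24.1 to 28.0 CPM in the other aged mice. The adipocyte markers of young mouse 2 summed to 75.2 CPM, against 42.6 to 50.2 CPM in the other young mice. Myb had 72.5 CPM in young mouse 5, the lowest of the young mice. No granule gene met this rule in either group.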

How the results depend on the processing

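The number of granule genes called was 0 of 10 in the main fit and in all 21 alternatives, including the replicate block. Of 210 alternative log2 fold changes of the granule genes, 202 kept their direction and 8 turned below 0, all without aged 2. Leaving out 1 library in turn gave -0.037 to 0.39 for Mpo, -0.047 to 0.46 for Elane, -0.065 to 0.33 for Prtn3, -0.061 to 0.38 for Ctsg, -0.079 to 0.46 for Ngp, -0.085 to 0.53 for Lcn2, -0.063 to 0.55 for S100a8, -0.087 to 0.48 for S100a9, 0.15 to 0.50 for Ltf and 0.04 to 0.47 for Camp. The difference in the primary to later ratio was -0.18 to -0.01 without 1 library in turn, and -0.10 by pairs of the same replicate number, which equals the unpaired value by construction. Over all genes, 1610 were called (812 higher and 798 lower), against 2796 with DESeq2, 367 with the red cell markers as a covariate, 1632 with the replicate block, 689 without aged 2 and aged 3, and 686 to 1686 without 1 library. It was 949 without aged 3, 686 without young 2 and 814 without young 4. The cause was not tested. Scaled by total counts alone, 285 were higher and 917 lower, and the median log2 fold change moved to -0.16. With the replicate block, 957 were higher and 675 lower. Same-numbered mice deviated from their group means with correlations of -0.15 to 0.17, so the numbers were not taken to pair mice, and the block changed no call of a granule gene. Among the other genes followed through all alternatives it brought Adam8 and Clec4d past the threshold. The granule genes had 436 or more counts in every library.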
